A study of Homo sapiens with 8 samples.

Results

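Among 2867 small RNA entries measured in HEK293 cells, 6 were mature microRNAs of the miR-34 family and of the miR-192, miR-194 and miR-215 group. They were every entry named miR-34a, miR-34b, miR-34c, miR-192, miR-194 or miR-215, with or without an arm suffix. The rule used names and no measured value, though it was set with earlier results of these data known. The 3 miR-34 entries were miR-34a-5p, miR-34b-3p and miR-34c-5p, and the other 3 were miR-192-5p, miR-194-5p and miR-215-5p. HEK293 is an established line derived from human embryonic kidney cells. In 4 libraries (ASO) the cells had been transfected with 100 nM of an antisense oligonucleotide, designed to bind a chosen RNA by base pairing, and in 4 (NoASO) they had received none. All were harvested at 48 h. The library names point to miR-31 as the intended target, and the stated purpose was to look for off-target effects. Since an unrelated oligonucleotide was not among the groups, an effect of this sequence and an effect of any transfected oligonucleotide cannot be told apart. The titles do not say whether NoASO cells were mock-transfected, so the transfection itself may also differ between the groups.

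MicroRNAs are cut from hairpin precursors and guide repressor complexes to mRNAs that pair with their seed. miR-34 microRNAs are induced by DNA damage in many cell types and repress cell-cycle and survival genes such as CDK6, MET and BCL2. miR-192, miR-215 and miR-194 mark differentiated epithelium in kidney, liver and gut, where HNF1 factors drive their genes.

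The mature sequences show which of these microRNAs can share targets and which can be confused in counting. RefSeq (GRCh38.p14) held 5 of the 6, printed 5′ to 3′ with bases 2 to 8, the seed that pairs with target mRNAs, in capitals. miR-449a and miR-449c-5p, encoded on chromosome 5, are added for comparison with miR-34a-5p.
miR-34a-5p: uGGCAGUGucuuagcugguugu
miR-449a: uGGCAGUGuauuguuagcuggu
miR-449c-5p: uAGGCAGUguauugcuagcggcugu
miR-34b-3p: cAAUCACUaacuccacugccau
miR-192-5p: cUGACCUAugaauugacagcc
miR-215-5p: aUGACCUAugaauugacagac
miR-194-5p: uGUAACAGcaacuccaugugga

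Bases 2 to 8 of miR-34a-5p matched those of miR-449a, while miR-34b-3p, from the opposite arm of its hairpin, carries another seed. miR-192-5p and miR-215-5p have the same seed and were identical at 19 of 21 bases. Counted from the 5′ end, with the miR-192-5p base first, they differed by C1A and C20A. A read covering bases 2 to 19 alone would fit both, and how such reads were assigned is not given in the sources used here. miR-194-5p has the same 22 bases in both of its genes, so its entry cannot be divided between them.

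The genes lie on chromosomes 1 and 11, and both annotations used gave the same hairpin coordinates. MIR34A (chr1:9151668-9151777, minus strand) sits in an exon of the long noncoding RNA gene MIR34AHG in GENCODE 29. MIR34B (chr11:111512938-111513021) and MIR34C (chr11:111513439-111513515) are on the plus strand, 417 bases apart. MIR192 (chr11:64891137-64891246) and MIR194-2 (chr11:64891355-64891439) are on the minus strand, 108 bases apart, in an exon of MIR194-2HG. MIR215 (chr1:220117853-220117962) and MIR194-1 (chr1:220118157-220118241) are also on the minus strand and close together, in an intron of the protein-coding gene IARS2, which runs on the opposite strand. Each cluster thus pairs MIR192 or MIR215, which share a seed, with a copy of miR-194.

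Library totals ran from 8168828 to 11677123 counts, and levels are CPM, counts scaled to each library's total and then by TMM, without division by length because a small RNA read covers the whole molecule. Some libraries stood apart over the 358 tested entries with a mean count of at least 100. The root mean square distance from the median of the other libraries was 0.578 on the log2 scale in ASO 2, 0.798 in NoASO 1 and 0.544 in NoASO 4, against 0.201 to 0.295 in the other 5. Results are therefore also given without those 3. All 6 kidney microRNAs of a separate list had entries, and so did all 6 epithelial and all 6 mesenchymal markers. Of muscle markers 4 of 5 had entries, and of blood cell markers 2 of 6. Having an entry does not give a level. Counts were high enough for testing in 6 kidney, 4 epithelial, 5 mesenchymal, 1 muscle and 1 blood cell entries. Among the sparse ones, miR-141-3p had 21 counts in ASO 3 only, and miR-205-5p had 6 in ASO 1 and 7 in ASO 2 only. miR-214-3p had at most 5 counts in any library. For the kidney microRNA miR-10a-5p the ASO mean was 28443 CPM and the NoASO mean 31084 CPM. For miR-204-5p, also of the kidney list, these means were 40.7 and 38.9 CPM. The tested blood cell marker, miR-486-5p, had an ASO mean of 82.1 CPM and a NoASO mean of 83.1 CPM. It does not stand for its list, since the other blood cell entry, miR-142-3p, had 4 counts in NoASO 1 only. The identity of the cells was not tested with these lists. The liver marker miR-122-5p stood at 25.3 to 41.5 CPM before TMM scaling in ASO libraries and at 10.3 to 14.3 CPM in NoASO libraries. Its log2 fold change was 1.30 (SE 0.20, edgeR adjusted p = 0.0516), which did not pass 0.05. Full separation of the groups was found in 8.32% of the 745 tested entries. Liver also makes miR-192 and miR-194, and the part of any such source in the results below was not tested.

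Across all libraries miR-192-5p was the most abundant of the 6, at 1289 CPM, and ranked 75 among the known microRNAs by mean level. miR-34a-5p followed at 323 CPM, then miR-194-5p at 143, miR-215-5p at 120 and miR-34c-5p at 87.7, with miR-34b-3p at 4.32 CPM. The ranges of miR-194-5p, 81.1 to 188 CPM, overlapped those of miR-215-5p, next in this order, and of miR-34c-5p, and the ranges of the other neighbours in the order did not overlap. Adapter ligation favours some sequences, so this order describes the libraries and need not be that of the cells. Together the 6 entries took 0.183% to 0.215% of a library's counts.

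None of the 6 passed the test. In edgeR's quasi-likelihood test 0 of 6 passed an adjusted p of 0.05, where 1 of all 745 tested entries (0.134%) did. At an unadjusted p of 0.05 the count was 0 of 6, against 10.5% of all entries, and DESeq2 called 0 of 6, against 5.45% of the 422 entries to which it gave an adjusted p. It gave none to miR-34b-3p. In 0 of 6 were the ASO and NoASO libraries fully separated, against 8.32% of all entries. In bulk libraries fewer cells that make a microRNA and less of it per cell cannot be told apart. The fold was above 1 in 3 of 6, near the 51.7% of all entries. The median size of the log2 fold change was 0.174 over the 6 and 0.264 over all entries tested. Both figures describe the entries and were not compared by a test. The sets also differ in abundance, since 5 of the 6 had a mean count of at least 100, against 358 of all 745. The count over all 745 entries moved to 0 without NoASO 2, to 5 without NoASO 4, and to 2 without ASO 1, ASO 4, NoASO 1 or NoASO 3. The count of members stayed at 0 in each of these fits.

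miR-34a-5p, the main miR-34 product in most tissues, had the higher mean with ASO. In ASO libraries 1 to 4 it stood at 381, 374, 364 and 317 CPM, from 3710, 4433, 4052 and 3263 counts. In NoASO libraries 1 to 4 it stood at 203, 291, 307 and 345 CPM, from 2044, 2717, 2548 and 3905 counts. NoASO 1 was the lowest of all 8 and lay well under the next library, while NoASO 4 reached above ASO 4, so the groups overlapped. The means were 359 ± 28.9 CPM with ASO and 286 ± 60.1 CPM in NoASO libraries (SD, n = 4 each). The log2 fold change was 0.33 (SE 0.16, 95% interval -0.04 to 0.70, edgeR adjusted p = 0.445). As a fold this is 1.25 (interval 0.970 to 1.62). Without NoASO 1 the NoASO mean was 314 ± 27.7 CPM (n = 3) and the log2 fold change 0.21, and without the 3 libraries that stood apart it was 0.23 (edgeR adjusted p = 0.675). The spread within groups was 9.64 times what counting error alone gives.

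miR-34c-5p, which shares a transcript with miR-34b, is best known from testis and from airway cells that bear cilia, and it was nearly level between groups. It stood at 98.6, 89.4, 79.4 and 79.8 CPM in ASO libraries 1 to 4, against 80.97, 93.2, 91.9 and 88.6 CPM in NoASO libraries 1 to 4. The ASO libraries held both the highest and the lowest value, and the NoASO libraries fell between them. The log2 fold change was -0.03 (SE 0.09, 95% interval -0.25 to 0.19, edgeR adjusted p = 0.948), and -0.12 without the 3 libraries that stood apart. It turned to 0.0086 without ASO 3. As a fold the interval was 0.841 to 1.14, the narrowest of the miR-34 entries.

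miR-34b-3p was scarce. It had 37, 57, 45 and 49 counts in ASO libraries 1 to 4, against 45, 36, 36 and 51 in NoASO libraries 1 to 4. The lowest count, 36, occurred in NoASO 2 and NoASO 3, with Wilson 95% intervals of 2.71 to 5.18 CPM and 3.18 to 6.10 CPM before TMM scaling, and both take in the level of every other library. The means were 4.35 ± 0.511 CPM with ASO and 4.29 ± 0.301 CPM in NoASO libraries (SD, n = 4 each), and the log2 fold change was 0.02 (SE 0.16, 95% interval -0.34 to 0.39, edgeR adjusted p = 0.972). The spread between its libraries was 0.646 times the counting error, no more than counting alone gives. A log2 fold change anywhere within -0.34 to 0.39 is not excluded by this interval, which is not a limit of detection. The direction flipped to -0.03 with upper-quartile scaling and to -0.0036 when known microRNAs were fitted alone.

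miR-192-5p, a kidney and gut microRNA that represses the transcription factors ZEB1 and ZEB2, had the lower mean with ASO. It stood at 1280.0, 1064, 1097 and 1241 CPM in ASO libraries 1 to 4, from 12475, 12597, 12202 and 12778 counts. In NoASO libraries 1 to 4 it stood at 1731, 1501, 1229 and 1170 CPM (17443, 14033, 10194 and 13252 counts). NoASO 1 and NoASO 2 exceeded every ASO library, but NoASO 3 and NoASO 4 lay among them. The means were 1171 ± 106 CPM with ASO and 1407 ± 259 CPM in NoASO libraries (SD, n = 4 each). The log2 fold change was -0.27 (SE 0.14, 95% interval -0.58 to 0.05, edgeR adjusted p = 0.464), a fold of 0.832. Leaving out NoASO 1 gave -0.13, and leaving out all 3 libraries that stood apart gave -0.19 (edgeR adjusted p = 0.726). Here the spread within groups was 16.3 times the counting error.

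miR-215-5p, the seed partner of miR-192-5p, ranked the NoASO libraries as miR-192-5p did, with a narrower range. Its levels were 121, 115, 110.1 and 121 CPM in ASO libraries 1 to 4, against 141, 127, 118 and 108 CPM in NoASO libraries 1 to 4. All 4 ASO libraries lay inside the range of the NoASO libraries. The log2 fold change was -0.08 (SE 0.09, 95% interval -0.30 to 0.13, edgeR adjusted p = 0.763), and it was 0.0032 without NoASO 1.

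miR-194-5p, the product of both clusters, had the largest fitted change of the 6 and the widest error. Its levels in ASO libraries 1 to 4 were 145, 188, 179 and 135 CPM, from 1411, 2225, 1990 and 1391 counts. In NoASO libraries 1 to 4 they were 81.1, 111, 142 and 162 CPM, from 817, 1042, 1182 and 1834 counts. NoASO 1 and NoASO 2 lay below every ASO library and NoASO 3 and NoASO 4 above the lowest of them, the reverse of what miR-192-5p showed. Means were 162 ± 25.7 CPM with ASO and 124 ± 35.5 CPM in NoASO libraries (SD, n = 4 each). The log2 fold change was 0.38 (SE 0.22, 95% interval -0.14 to 0.90, edgeR adjusted p = 0.505), or 0.23 without NoASO 1 and 0.26 without the 3 libraries that stood apart.

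**Figure D1:**
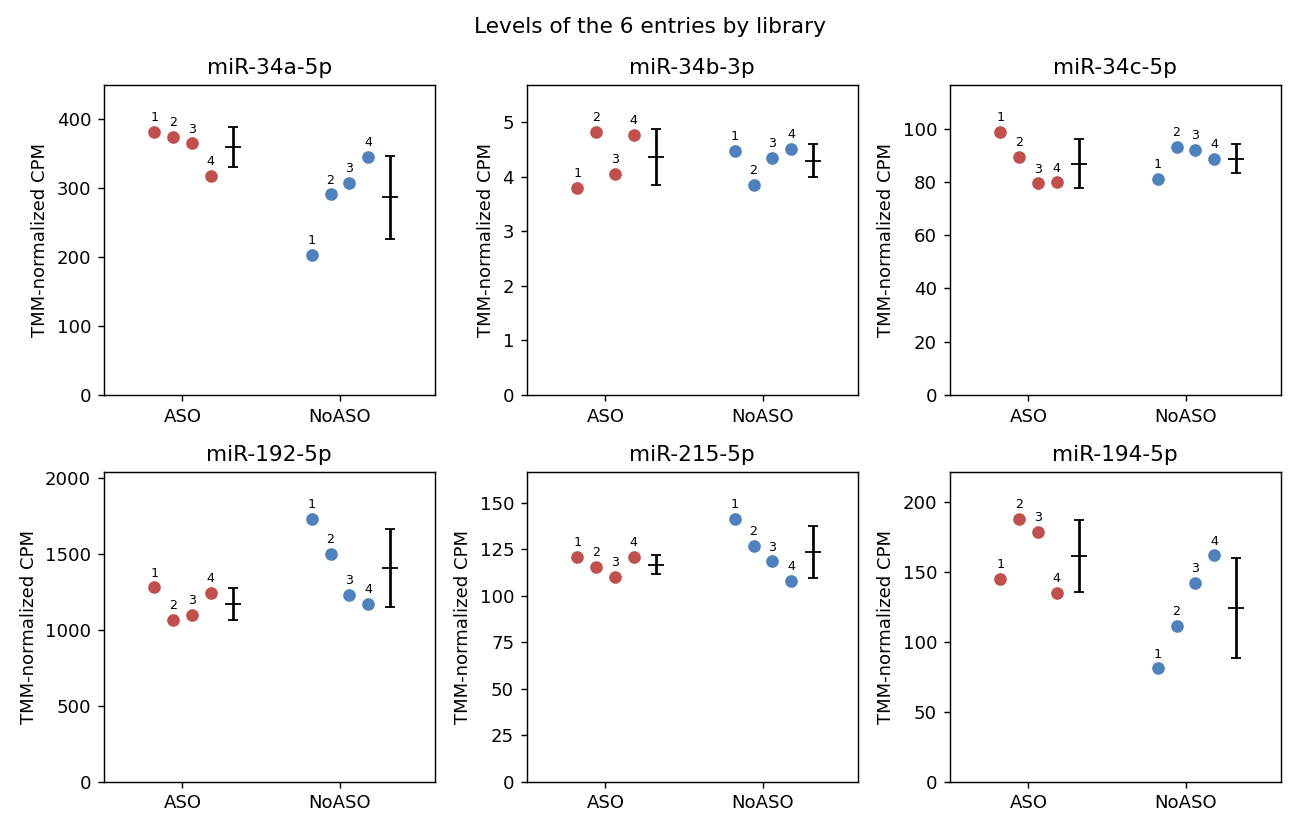
TMM-normalized CPM of each entry in ASO (left) and NoASO (right) libraries; each point is 1 library with its number, and the bar beside each group is the mean ± SD of 4 libraries. NoASO 1 is the lowest library for miR-34a-5p (203 CPM) and miR-194-5p (81.1 CPM) and the highest for miR-192-5p (1731 CPM) and miR-215-5p (141 CPM).

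**Figure D2:**
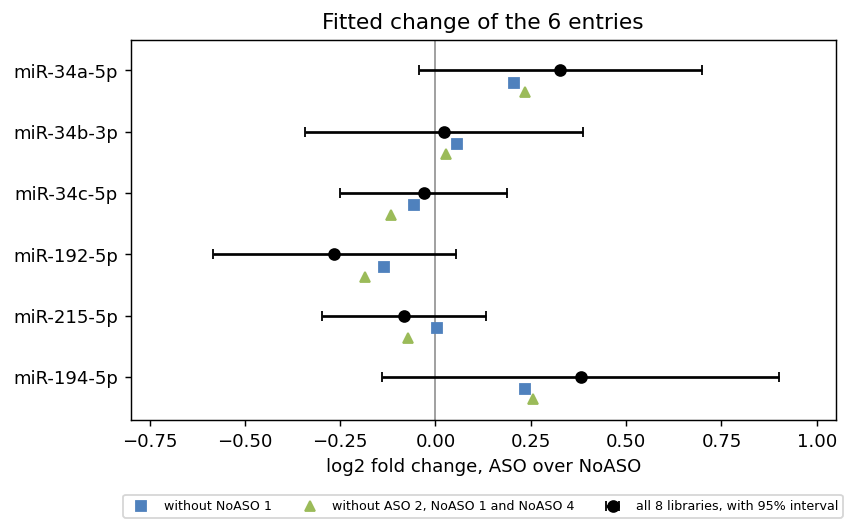
Fitted log2 fold change of each entry, ASO over NoASO, on the horizontal axis. Black points with bars are the fit to all 8 libraries with its 95% interval, and every interval includes 0; squares leave out NoASO 1 and triangles leave out ASO 2, NoASO 1 and NoASO 4.

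Ratios between entries of the same library do not depend on how libraries are scaled, and 6 were compared between groups. In all 6 the groups overlapped, and none passed exact two-sided permutation tests adjusted over the 6 ratios. The 70 arrangements allow a smallest p of 0.0286, which for a single ratio becomes an adjusted p of 0.171. At least 4 of the 6 would have had to reach that smallest p for any to pass, so no ratio could have passed alone.

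The clustered microRNAs miR-192-5p and miR-194-5p varied most against each other. Counts of miR-192-5p per count of miR-194-5p were 8.84, 5.66, 6.13 and 9.19 in ASO libraries 1 to 4, against 21.4, 13.5, 8.62 and 7.23 in NoASO libraries 1 to 4. The ratio thus covered a 3.77-fold range over libraries of a single cell line and a 2.95-fold range within the NoASO group alone. The mean log2 ratio was 2.87 ± 0.36 with ASO and 3.53 ± 0.70 in NoASO libraries, a difference of -0.67 (exact permutation p = 0.171, adjusted p = 0.240), or -0.37 without NoASO 1. For the second cluster, miR-215-5p over miR-194-5p, the ratio ran from 0.613 to 0.895 with ASO and from 0.667 to 1.74 in NoASO libraries. The difference in mean log2 ratio was -0.49 (exact permutation p = 0.171, adjusted p = 0.240), or -0.24 without NoASO 1. It was -0.44 for the first cluster and -0.33 for the second without the 3 libraries that stood apart. Both ratios share the miR-194-5p counts, so they are not independent.

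The seed partners, encoded on different chromosomes, stayed in the narrowest proportion of the 6 pairs, a 1.33-fold range over all 8 libraries. Counts of miR-192-5p per count of miR-215-5p were 10.6, 9.23, 9.97 and 10.3 in ASO libraries 1 to 4, against 12.2, 11.8, 10.4 and 10.8 in NoASO libraries 1 to 4. ASO 1 lay above NoASO 3, and otherwise all ASO libraries were below all NoASO libraries. The mean log2 ratio was 3.32 ± 0.09 with ASO and 3.498 ± 0.11 in NoASO libraries (SD, n = 4 each), a difference of -0.18 (exact permutation p = 0.0571, adjusted p = 0.171), and -0.11 without the 3 libraries that stood apart. What part reads fitting both sequences had in this was not tested.

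Within the miR-34 family, miR-34a-5p per count of miR-34c-5p was 3.86, 4.19, 4.59 and 3.97 in ASO libraries 1 to 4, against 2.50, 3.12, 3.34 and 3.89 in NoASO libraries 1 to 4. The groups overlapped through ASO 1, which lay below NoASO 4, and through no other pair. The mean log2 ratio was 2.05 ± 0.11 with ASO and 1.67 ± 0.26 in NoASO libraries (SD, n = 4 each). The difference of 0.38 gave an exact permutation p of 0.0571 (adjusted p = 0.171), and it was 0.27 without NoASO 1 and 0.36 without the 3 libraries that stood apart. The differences for miR-34a-5p over miR-34b-3p, 0.33 (exact permutation p = 0.200, adjusted p = 0.240), and for miR-34b-3p over miR-34c-5p, 0.05 (exact permutation p = 0.743), rest on the low counts of miR-34b-3p. Without NoASO 1 they were 0.16 and 0.12.

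**Figure D3:**
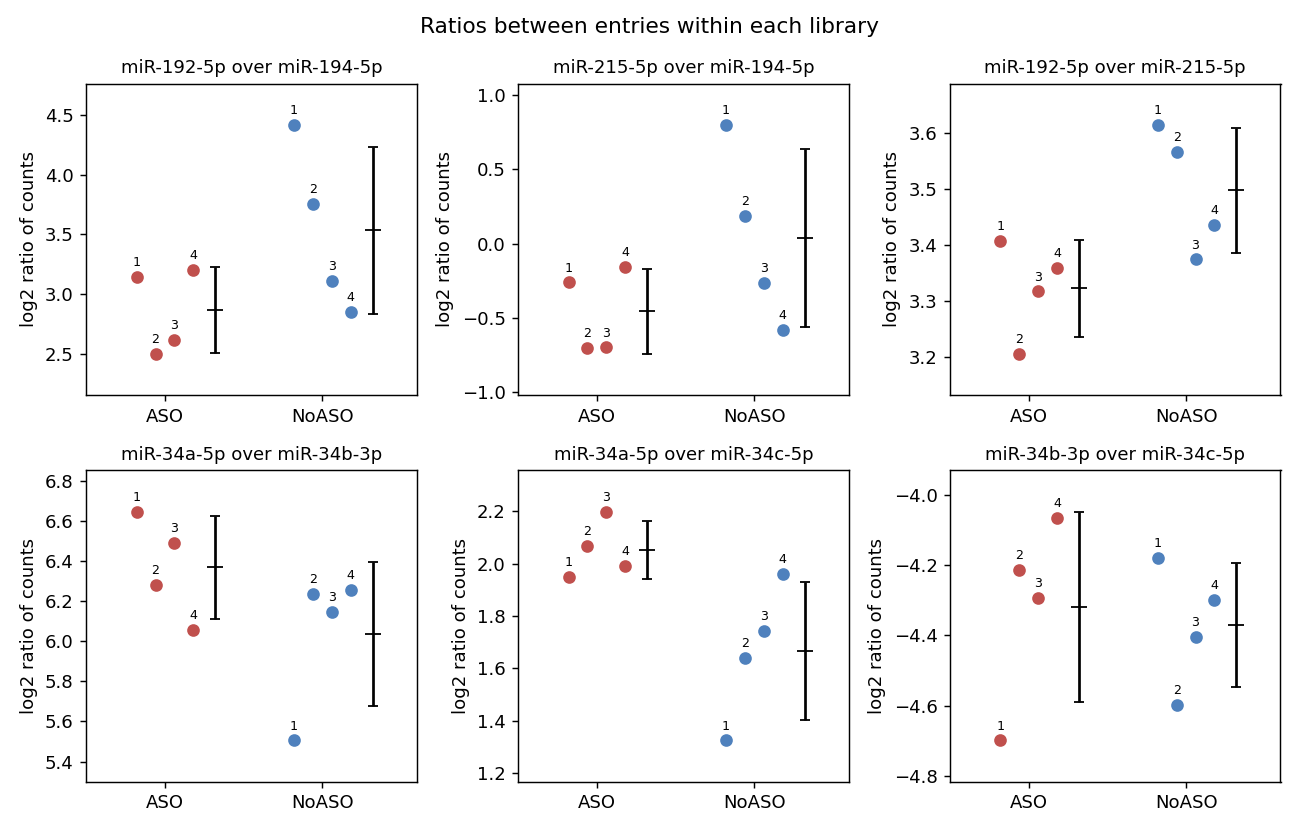
Log2 ratio of raw counts of the entries named above each panel, within each library, ASO left and NoASO right; points carry library numbers and bars are the mean ± SD of 4 libraries. The vertical axes differ between panels and do not start at 0: miR-192-5p over miR-194-5p covers a 3.77-fold range and miR-192-5p over miR-215-5p a 1.33-fold range.

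The libraries' deviations from their own group mean showed how the members varied together. Relative to the group mean, miR-192-5p and miR-215-5p deviated to the same side in 8 of 8 libraries, and miR-192-5p and miR-194-5p to opposite sides in 8 of 8. In NoASO 1 the deviation in log2 level was 0.32 for miR-192-5p, 0.20 for miR-215-5p, -0.57 for miR-194-5p and -0.47 for miR-34a-5p. In NoASO 4 the signs were reversed, at -0.25 for miR-192-5p, -0.19 for miR-215-5p, 0.43 for miR-194-5p and 0.29 for miR-34a-5p. miR-34a-5p deviated to the same side as miR-194-5p in 6 of 8 libraries and to the same side as miR-34c-5p in 7 of 8. Deviations within a group sum to 0 and all entries of a library share its depth and scaling, so these counts are a description and carry no test. By sign alone, miR-192-5p deviated with its seed partner on another chromosome and against miR-194-5p, a copy of which lies in the same host exon. Entries outside the group, named below, also followed miR-192-5p, so a similar course was not particular to the seed partner. They were found by another measure, which includes the difference between ASO and NoASO libraries. miR-215-5p was not among the entries compared by it. The part of reads fitting both miR-192-5p and miR-215-5p was not tested.

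**Figure D4:**
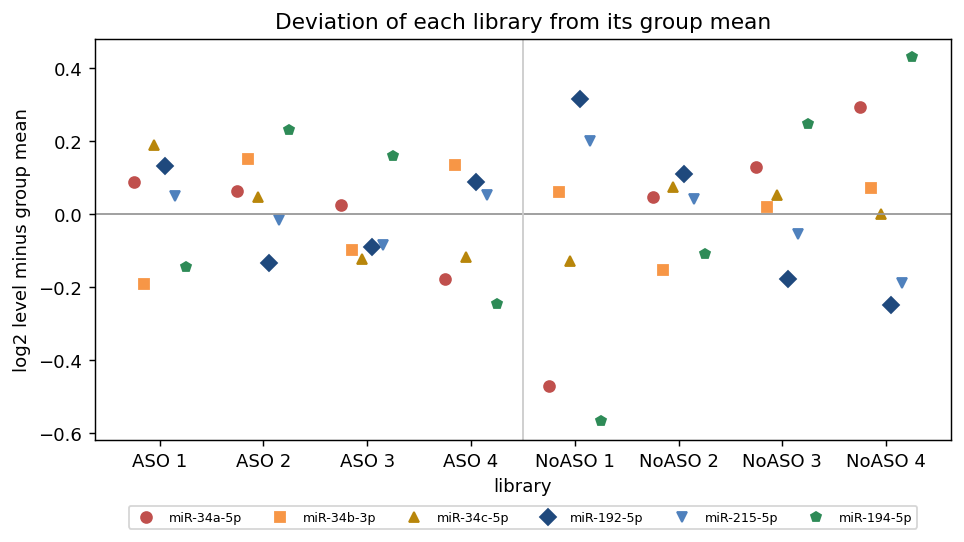
Log2 level of each entry minus the mean of its own group, by library, with ASO libraries at the left. The markers of miR-192-5p and miR-215-5p lie on the same side of 0 in 8 of 8 libraries and those of miR-194-5p on the opposite side; NoASO 1 has the largest deviations, -0.57 for miR-194-5p and -0.47 for miR-34a-5p.

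Other entries followed the same library-to-library course. Among 327 entries with a mean count of at least 100 and counts in every library, the course of miR-192-5p over the 8 libraries was most like that of let-7i-5p, with a root mean square difference of 0.0134 in centred log2 level. miR-532-5p (0.0345) and miR-9903 (0.0490) came next, and the median entry differed by 0.284. The entries most like miR-34a-5p were miR-221-3p (0.0652), miR-181b-5p (0.0719) and miR-505-3p (0.0760), with a median entry at 0.289.

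The miR-449 microRNAs, which share targets with miR-34 and are made in ciliated cells, gave unequal pictures. miR-449c-5p, whose bases 2 to 8 are offset by a base from those of miR-34a-5p, averaged 93.8 ± 7.06 CPM with ASO and 97.9 ± 9.33 CPM in NoASO libraries (SD, n = 4 each; log2 fold change -0.06, edgeR adjusted p = 0.835). miR-449a, which has the seed of miR-34a-5p, was at 95 counts in ASO 3 and at 0 in the other 7 libraries, where a count of 0 allows up to 0.257 to 0.367 CPM. It was too sparse to be tested.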

How the data were processed

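Small RNA libraries were made with a NEB kit from RNA of HEK293 cells, per the labels' protocols, and grouped by title. The authors deposited whole-number counts per entry and library, not normalized, and CPM columns that they headed TPM; the deposited CPM differ from count over library total by at most 0.223 CPM and served only as a check. The deposited table also gives a length for each entry. bcl2fastq 2.20, Trimmomatic 0.30, edgeR 3.4.6 and GRCh38 are named in the submitters' processing notes; which aligner and counter were used is not stated in these sources. Arms or near-identical sequences may thus not be fully separated.

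The 745 entries with a mean count of 10 or more and counts in 4 or more libraries, all 6 members included, were tested with edgeR 4.0.16 (quasi-likelihood, TMM, trended dispersion, two-sided, Benjamini-Hochberg over all 745). SE is the log2 fold change over the square root of F. DESeq2 1.42.0 was an alternative. Ratios used scipy 1.17.1. On counts simulated for this comparison with 200 of 745 entries changed, edgeR called 2.44% of the 1.5-fold changes, 23.6% of the 2-fold ones and 57.1% of the 4-fold ones. The simulation drew each entry independently, without the shared deviations of ASO 2, NoASO 1 and NoASO 4. Its rates cover tested entries of every abundance, so they need not hold for the 6 members. Members, lists and tests were chosen with earlier results of these data known. Some planned list results are not reported here. Every member is named, with the 3 entries closest in course to miR-34a-5p and miR-192-5p; the miR-449 entries were named after their values were seen. No replicates looked like a repeat of the same library (chi-square over degrees of freedom 135 to 801 per pair). Whether the libraries represent separate cultures is not stated, so p-values reflect their spread, which may be technical. The intervals of log2 fold changes come from edgeR and include the spread between libraries; Wilson intervals and limits from a count of 0 cover counting error only.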

Additional observations from a re-analysis of the deposited data

How the results depend on the processing

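The count of the 6 microRNAs past the threshold was 0 under every alternative run: other scalings, other filters, known microRNAs only, DESeq2, the replicate block, each library left out in turn, and ASO 2, NoASO 1 and NoASO 4 left out together (chosen after seeing the data). Over all entries the count of 1 moved to 0 with no filter, 4 with known microRNAs only (1 higher, 3 lower), 5 with a mean count of at least 100 (1 higher, 4 lower; miR-34b-3p then had no value) and 23 with DESeq2 (9 higher, 14 lower), and ran from 0 to 5 on leaving out 1 library; the cause was not tested. With a replicate block by library number it was 0, and the log2 fold changes of the members kept their sign. Same-numbered libraries had correlations of deviations from -0.904 to 0.716, 1 of 4 above 0.1, and 1 of 4 ASO libraries correlated best with its own number. These correlations show no general pairing by number. With 4 libraries in each group, and with ASO 2, NoASO 1 and NoASO 4 standing apart, they cannot settle whether libraries were prepared in pairs.

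miR-34a-5p ran from 0.21 to 0.43 on the log2 scale over the libraries left out, miR-192-5p from -0.34 to -0.13 and miR-194-5p from 0.23 to 0.53. Without NoASO 4 these 3 had unadjusted edgeR p of 0.0310, 0.0349 and 0.0458, with adjusted p of 0.247 to 0.268. miR-34a-5p also fell below 0.05 unadjusted with DESeq2 (0.0397) and upper-quartile scaling (0.0498). The share of all entries below 0.05 unadjusted in these 3 fits is not given here. It was 10.5% in the edgeR fit to all 8 libraries, so these p-values do not set the members apart from other entries. The sign of miR-34b-3p turned with upper-quartile scaling (-0.034), known microRNAs only (-0.0036) and on leaving out ASO 2 (-0.030), ASO 4 (-0.034) or NoASO 2 (-0.026), within -0.034 to 0.082 over the libraries left out. That of miR-34c-5p turned without ASO 3 (0.0086; -0.098 to 0.0086 over the libraries left out) and that of miR-215-5p without NoASO 1 (0.0032; -0.14 to 0.0032). The miR-34b-3p over miR-34c-5p ratio ran from -0.032 to 0.18 over the libraries left out, turning without ASO 4 and without NoASO 2 (-0.024). No other ratio changed sign under any alternative run. No ratio could pass without 1 library (smallest p 0.0571), with the replicate block (0.125) or without the 3 libraries (0.200), so those p-values say nothing about stability. Low counts limit miR-34b-3p.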
